A study of Mus musculus with 20 samples.

Results

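The neurons described here are barcodes from the mouse basolateral amygdala (BLA) that held at least 1 unique molecular identifier (UMI) of Slc17a6, the gene of vesicular glutamate transporter 2. They were chosen by measured values: a share of mitochondrial UMIs within the study's limit (the highest member was at 12.4%), at least 200 genes detected, no UMI of Gad1 or Gad2, and a summed count of at most 2 UMIs over 10 marker genes of microglia, vascular cells and glia. Of 5908 barcodes that passed the limits on mitochondrial share and genes in 9 libraries, 107 met the rule, which is 1.81%. They are called members below. One further library, CORT/Sal 2, was left out by the rule, and its 15 barcodes that met the other criteria were not used.

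The libraries came from male C57BL/6 wild type mice 13 weeks old, 1 mouse and 1 10x Chromium library each. For 6 weeks the drinking water carried either 2-hydroxypropyl cyclodextrin, the vehicle (BCD), or 35 µg/ml corticosterone (CORT), and saline (Sal) or ketamine (Ket, 10 mg/kg, intraperitoneal) was injected 24 h before the brains were taken. The labels name BCD for the control mice, whereas the methods for the single-cell experiment speak of regular drinking water. The groups were BCD/Sal (2 libraries), BCD/Ket (3), CORT/Sal (1) and CORT/Ket (3), numbered in accession order. The tissue was a dissected region dissociated into cells, with no sort for neurons, and how much neighbouring tissue each dissection held was not tested.

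Glutamate neurons load their synaptic vesicles through 1 or more vesicular glutamate transporters. Slc17a7 (vesicular glutamate transporter 1) is the usual form in cortex, hippocampus and the principal neurons of the BLA, whereas Slc17a6 is the usual form in thalamus, hypothalamus and brainstem and is also found in parts of the amygdala and in some cortical neurons. Reln encodes the secreted glycoprotein reelin, Cartpt a secreted neuropeptide precursor, and the Celsr genes the large adhesion receptors of the planar cell polarity pathway, which acts at glutamatergic synapses. On the mouse genome build NCBIM37 (mm9), Slc17a6 lies at chr7:58877200-58926495 on the plus strand, Slc17a7 at chr7:52419291-52431508 on the plus strand and Reln at chr5:21390272-21850523 on the minus strand.

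The BCD/Sal libraries gave 25 and 24 members, the BCD/Ket libraries 7, 8 and 14, the CORT/Sal library 7, and the CORT/Ket libraries 7, 2 and 13. The 107 members held 435564 UMIs, with a median of 2995 UMIs and 1708 genes, and their range of depth ran from 543 to 39725 UMIs. Summed per library, members held between 6834 (CORT/Ket 2) and 109569 UMIs (BCD/Sal 2). The deepest barcode alone made up 59.5% of the member UMIs of BCD/Ket 2. Slc17a6 itself was a low count: 62 members had exactly 1 UMI and lie at the edge of the rule, 45 had 2 or more, and the highest had 15. Median depth was 1910.5 UMIs in the former and 4736 in the latter.

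Of the kept barcodes outside the rule, 13 others also held Slc17a6. Of these, 7 failed on the marker sum alone and 5 on Gad1 or Gad2 alone. At the marker limit, 1 member had a sum of 2, 6 had a sum of 1 and 100 had a sum of 0. At the mitochondrial limit, 29 members lay at 10% or more. Past the limit lay 199 barcodes that met the other criteria, more than the 107 members, and 19 of these lay under 15%.

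A group of 3 libraries stood apart from the rest in RNA composition. Gm42418, a transcript that overlaps a ribosomal RNA repeat, took 56695 CPM (UMIs of a gene scaled to a total of 1000000) of the member UMIs in BCD/Sal 2, 20517 in BCD/Ket 1 and 35903 in CORT/Ket 1. In the other 6 libraries it lay between 626 and 2341 CPM. The same libraries had it high in the comparison neurons named below, at 49562, 16360.0 and 35018 CPM. They are spread over 3 groups, and their part in the comparisons was not tested beyond the values without each library. No member barcode was a member in more than 1 library, although 3 of the barcode sequences also occurred in another library.

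The label of excitatory neurons was checked against its marker genes. Snap25 and Syt1, presynaptic genes of all neurons, were detected in 82 and 92 members, and 101 had at least 1 of them. Chgb (chromogranin B, a protein of peptide-storing granules) was present in 71 members, or 66.4%, and Nptxr (the neuronal pentraxin receptor) in 66, or 61.7%. Both are marker genes of this label. Pooled, Chgb was at 783 CPM in members and 808 CPM in the comparison neurons named below, and Nptxr at 739 and 1420.3 CPM, so neither was higher in members. Slc32a1, the vesicular GABA transporter, had no UMI, and of 9 inhibitory markers 3 were seen, where the rule itself had set Gad1 and Gad2 to 0. Cartpt was nearly absent and went against the label: 3 members held 6 UMIs between them, which is 2.80%, while 33 of the 653 comparison neurons, or 5.05%, held it. The other 104 members had none, so a Cartpt subset could not be described beyond these 3 cells. They came from 3 libraries (BCD/Sal 2, CORT/Sal 1, CORT/Ket 2), 2 of them had Slc17a7, and none had Reln.

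Transcripts of other cells were scarce in the members. Among 9 microglial markers 4 were seen, summing to 11.5 CPM, with Cx3cr1, C1qb, C1qc, Tmem119 and Csf1r at 0. Among 6 endothelial markers Flt1 and Ly6c1 were at 0 and the sum was 23.0 CPM, led by Itm2a with 5 UMIs. The astrocyte list reached 509.7 CPM against 669 in the comparison neurons, led by Slc1a2 with 176 UMIs, and Gja1 was at 0. Several of these genes took part in the rule, so their absence is a property of the choice. Free RNA was gauged in barcodes with at least 3 UMIs of another cell type's markers and no Snap25: Slc17a6 was seen in 0 of 1083 endothelial barcodes, which allows a share of up to 0.277%, and in 1 of 848 microglia, or 0.118%. Median depths there were 1504 and 1613.5 UMIs. These limits cover counting error only. Leaving out barcodes with Snap25 also removed some with free neuronal RNA, so the background shares here and below may be too low.

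The share of members among kept barcodes ranged from 0.322 to 9.60% over the 9 libraries. It was 1.96% in BCD/Sal 1 (exact binomial 95% interval 1.27 to 2.88%) and 9.60% in BCD/Sal 2 (6.25 to 13.9%). The 3 BCD/Ket libraries had 1.94, 1.21 and 1.53%, the CORT/Sal library had 1.01%, and the 3 CORT/Ket libraries had 5.19, 0.322 and 1.30%. BCD/Sal 2 and CORT/Ket 1 were high. Both are among the 3 libraries with high Gm42418, and they had the fewest kept barcodes, 250 and 135. The mean was 5.78% ± 5.40 (SD, n = 2) in BCD/Sal and 1.56% ± 0.365 (SD, n = 3) in BCD/Ket, a difference of -4.22 percentage points with p = 0.2 in a two-sided exact permutation test over libraries and 0.8 after Benjamini-Hochberg adjustment over 8 such tests. Without BCD/Sal 2 that difference was -0.402 points and without BCD/Sal 1 it was -8.04. CORT/Ket, at 2.27% ± 2.57 (SD, n = 3), differed from BCD/Ket by 0.708 points (exact permutation p = 0.9, adjusted 1). The smallest p these designs allow is 0.1. After each kept barcode with at least 1000 UMIs was thinned to that number, 41 of 4193 barcodes, or 0.978%, met the rule, whether or not they had met it before. A share of barcodes does not separate fewer of these cells from fewer UMIs per cell.

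**Figure D1:**
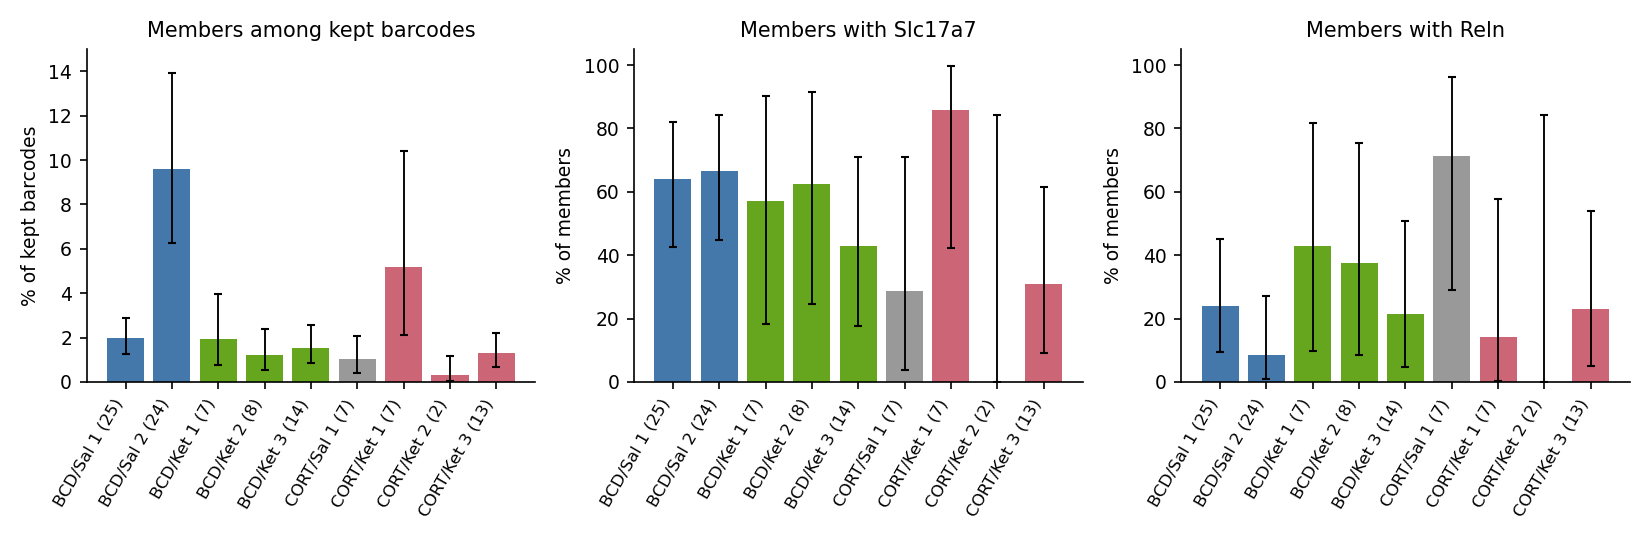
Bars give, for each library, the share of kept barcodes that were Slc17a6-expressing members (left) and the shares of members with at least 1 UMI of Slc17a7 (middle) and Reln (right), all in percent. Lines are exact binomial 95% intervals, numbers in brackets are members, and colours mark the 4 groups; BCD/Sal 2 at 9.60% and CORT/Ket 1 at 5.19% stand above the other shares of members, and CORT/Sal 1 has the highest share with Reln.

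Slc17a7 was detected beside Slc17a6 in 59 of 107 members, or 55.1%. By library the share was 64.0 and 66.7% under BCD/Sal, 57.1, 62.5 and 42.9% under BCD/Ket, 28.6% for the CORT/Sal library, and 85.7, 0 and 30.8% under CORT/Ket. The BCD/Sal and BCD/Ket libraries lie close together and the CORT/Ket libraries span nearly the whole range, with CORT/Ket 2 resting on 2 members. BCD/Ket differed from BCD/Sal by -11.2 points and CORT/Ket from BCD/Ket by 4.08 points over libraries with at least 5 members (exact permutation p = 0.2 and 1, or 0.8 and 1 after adjustment over the 8 tests). Members with 1 UMI of Slc17a6 held Slc17a7 in 33 of 62 cases (53.2%) and those with more in 26 of 45 (57.8%, 95% interval 42.2 to 72.3%). The free RNA background was lower: 34 of 1083 endothelial barcodes, or 3.14%, had a Slc17a7 UMI. Among the 92 members with at least 1000 UMIs, 38, or 41.3%, kept Slc17a7 after thinning to that depth. Seen from the other side, 59 of 712 barcodes with Slc17a7 that passed the rule on the remaining genes, or 8.29%, also carried Slc17a6.

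Members with Slc17a7 were deeper than those without, at a median of 3473 against 1868.5 UMIs, and their mitochondrial share was 8.82% against 6.46%. Libraries with at least 3 members of each kind numbered 6, and only 214 genes had enough counts to be tested in the sums. Using edgeR's quasi-likelihood test with the library as a block, 0.935% of the genes tested were called at an adjusted p under 0.05. These were 2 genes, both lower in members with Slc17a7. Meg3, a maternally expressed long non-coding RNA abundant in neurons, was at 31067, 10734, 17344, 17438, 16351 and 23489 CPM in members with Slc17a7 of BCD/Sal 1 and 2, BCD/Ket 1, 2 and 3 and CORT/Ket 3. In members without it, the same libraries gave 47514, 15058, 40381, 35913, 18509 and 37832 CPM. Every library was lower with Slc17a7, by -0.86 on the log2 scale (SE 0.12, adjusted p = 7.8e-04, edgeR). Rps21, a protein of the small ribosomal subunit, was lower in the same 6 libraries (-1.72, SE 0.37, adjusted p = 0.0309, edgeR), from between 162 and 1362 CPM without Slc17a7 to between 113 and 596 with it. Of the 13 members with Ndnf, a gene described below, 11 lacked Slc17a7. In BCD/Sal 1, BCD/Ket 2 and 3 and CORT/Ket 3, members with Ndnf had 2233, 2408, 1136 and 333 CPM of Rps21. Members without Ndnf there had 299, 402, 188 and 379 CPM. The part of the Ndnf cells in the Rps21 difference was not tested. Meg3 was called whichever of the 6 libraries was left out, and Rps21 in none of the 4 such fits that tested it. Neither was called without the library block, without the filter on low counts, or with at least 1000 genes per barcode, where Meg3 was at -0.28 (adjusted p = 0.831, edgeR). In the libraries outside the fit, Rps21 was higher with Slc17a7, at 1656 against 1121 CPM in CORT/Sal 1 and 473 against 334 in CORT/Ket 1.

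Several genes picked after their values were seen had higher pooled counts in members with Slc17a7, nearly all of them below the count needed for the test. None of the listed pallial factors, amygdala genes or cortical layer genes could be tested in this comparison. Mef2c, an activity-dependent transcription factor, had 409 UMIs (1367 CPM, exact Poisson 95% interval 1238 to 1506) in members with Slc17a7 and 22 UMIs (161 CPM, 101 to 244) in members without. By library it stood at 1558 against 0, 1266 against 267, 453 against 323, 1482 against 0, 1535 against 73.7 and 1330 against 114 CPM, in the order given above, higher with Slc17a7 in all 6. Neurod2 and Neurod6, transcription factors of pallial glutamate neurons, had 46 and 25 UMIs with Slc17a7 and none without. The deepest barcode held 13 of the 25 Neurod6 UMIs. Satb1, a chromatin organiser, had 64 against 2 UMIs, 21 of them in that barcode, Rorb, a receptor-type transcription factor of cortical layer 4, 34 against 0, and Bdnf, the neurotrophin, 31 against 0. Lypd1, a modulator of nicotinic receptors, was at 728 against 110.0 CPM. Tbr1, another pallial factor, was at 80.2 CPM (51.4 to 119) against 51.4 (20.6 to 106), intervals that overlap. With no filter on low counts, Mef2c (3.68, SE 0.59), Tcf4 (2.72, SE 0.59) and Neurod2 (5.27, SE 1.23) were called higher with Slc17a7 and Ndnf lower, at adjusted p by edgeR of 3.7e-06, 0.0125, 0.0487 and 9.96e-04. The fitted fold of Neurod2 depends on the prior count, since members without Slc17a7 had no UMI of it. Nptxr, one of the marker genes of the label, was at 959 CPM with Slc17a7 and 257 without and was not called (1.74, SE 0.62, adjusted p = 0.214, edgeR). Camk2a, the kinase subunit of excitatory postsynapses, was higher in all 6 libraries and not called either (1.17, SE 0.38, adjusted p = 0.195, edgeR). One direction in every library was seen in 10.7% of the genes tested. Outside the fit, Camk2a was at 184 CPM with Slc17a7 against 309 without in CORT/Sal 1, and at 1006 against 1002 in CORT/Ket 1.

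**Figure D2:**
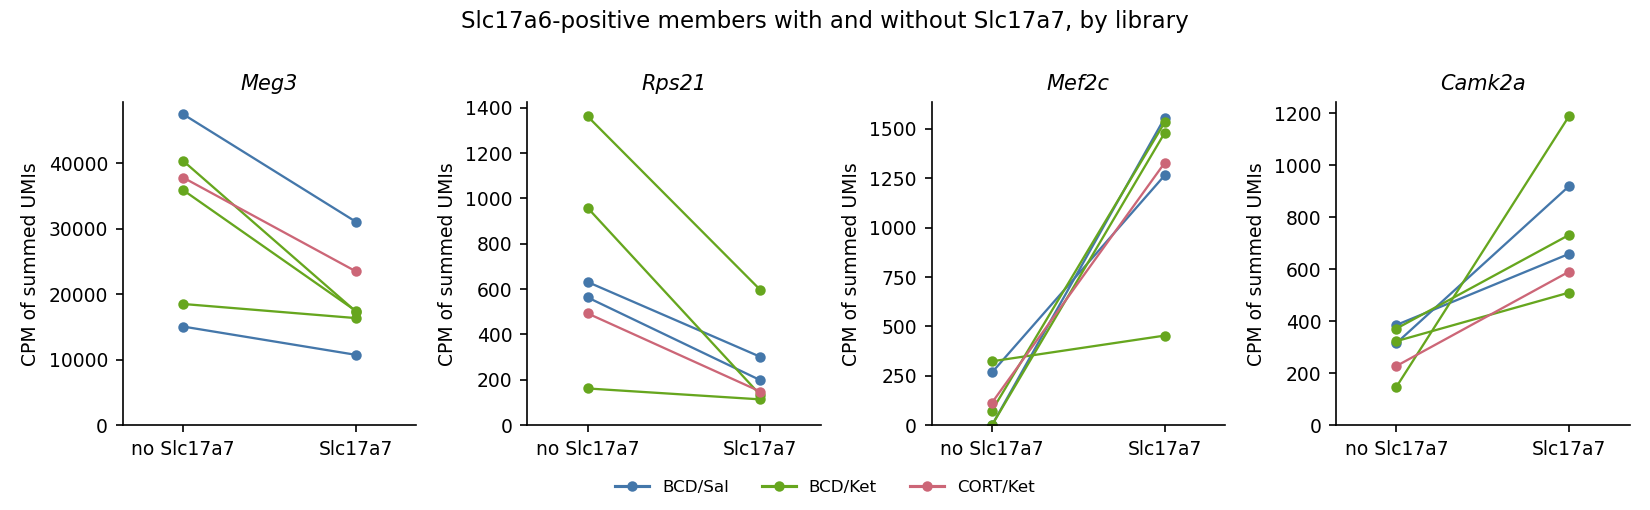
Each line joins the members without and with Slc17a7 of 1 library, for the 6 libraries with at least 3 members of each kind; the vertical axis is CPM of summed UMIs and starts at 0. Meg3 and Rps21 fall in every library, and Mef2c and Camk2a are higher with Slc17a7 in every library.

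Members without Slc17a7 carried more of another set of genes, seen in the pooled sums only and chosen after their values were known. Cacna2d2, an auxiliary subunit of calcium channels, was at 499 CPM (387 to 632) without Slc17a7 and 50.1 (28.1 to 82.7) with it. Of its 68 UMIs without Slc17a7, 51 lay in 11 cells that also held Ndnf, and the other 37 cells had 155 CPM. Scg2 (secretogranin II) was at 506 against 204 CPM, and Pbx3, a homeodomain transcription factor, at 139 against 16.7 CPM. Intervals cover counting error in cells of 9 mice and are no test between mice.

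Reln marked 26 members, or 24.3%, with 116 UMIs. The free RNA background was lower, at 2 of 1083 endothelial barcodes (0.185%) and 9 of 920 astrocytes (0.978%). Pooled, the level was 266 CPM (220.1 to 319) in members and 60.0 CPM (49.5 to 72.0) in the Slc17a7 neurons without Slc17a6, where 62 of 653 barcodes, or 9.49%, had it. Of the 116 Reln UMIs, 86 lay in the 13 members with Ndnf described below. The 94 members without Ndnf held 30 Reln UMIs among 400194 UMIs, so the pooled difference rested mostly on those 13 cells. In the fit over the 4 libraries with at least 10 of both kinds the difference did not pass (log2 1.56, SE 0.59, adjusted p = 0.371, edgeR); it ran from 0.74 without BCD/Ket 3 to 2.32 without BCD/Sal 2, where it passed, was called with no filter on low counts (1.38), and was -0.49 with at least 2000 UMIs per barcode. By library, BCD/Sal members stood at 202 and 54.8 CPM, BCD/Ket members at 294, 314 and 487, CORT/Sal members at 927, and CORT/Ket members at 136, 0 and 225. The 3 BCD/Ket libraries lay above both BCD/Sal libraries, and CORT/Sal 1 lay above all the others, an order that rested on a few cells with Ndnf, with an exact Poisson interval of 620.5 to 1331 CPM for its single library and 5 of its 7 members positive. Between BCD/Ket and BCD/Sal, 11.4% of the genes tested had no overlap, in 1 direction or the other. The Reln difference between BCD/Ket and BCD/Sal did not pass the test across genes (log2 1.56, SE 0.63, adjusted p = 0.999, edgeR), nor did the share of members with Reln, at 33.9% ± 11.2 (SD, n = 3) against 16.2% ± 11.1 (SD, n = 2) with exact permutation p = 0.4 (adjusted 0.8). CORT/Ket, at 18.7% ± 6.22 (SD, n = 2), had the same p against BCD/Ket. Leaving out 1 library moved the log2 difference between BCD/Ket and BCD/Sal from 0.78 to 2.63. Their difference in the share with Reln moved from 9.93 to 25.6 points. In the members thinned to 1000 UMIs, 16 of 92, or 17.4%, kept Reln.

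Ndnf, the gene of a secreted neurotrophic factor, split the members with Reln into equal sets; it was chosen after its values were seen. All 13 members with Ndnf also had Reln, with 86 of the 116 Reln UMIs, and the other 13 members with Reln had 30 Reln UMIs and at most 5 each. Ndnf lay at 1 to 18 UMIs in the 13 cells, 125 in all. They came from 5 libraries: 2 from BCD/Sal 1, 3 each from BCD/Ket 2, BCD/Ket 3 and CORT/Sal 1, and 2 from CORT/Ket 3. None of the 3 libraries with high Gm42418 had one. These few cells set the order of the libraries in Reln: without them BCD/Ket 2 and 3 had no Reln UMI, BCD/Sal 1 was at 89.7 CPM, CORT/Sal 1 was at 256 CPM and BCD/Ket 1, which had none of these cells, stayed at 294. Of the 13, 2 had Slc17a7 (15.4%, 1.92 to 45.4%), against 48 of the 81 members without Reln (59.3%, 47.8 to 70.1%). Ndnf was found in 3 of 653 Slc17a7 neurons without Slc17a6, or 0.459%. Endothelial barcodes also held it, 313 of 1083 or 28.9%; the rule capped endothelial genes in members, and an endothelial part in the Ndnf counts was not tested.

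Among the 107 members, a group of developmental transcription factors was detected in those with Ndnf and in almost no others. These genes were chosen after their values were seen and carry no test. Lhx1, a LIM homeodomain factor, was present in 7 of 13, or 53.8%, and Nhlh2, a basic helix-loop-helix factor, in 9, or 69.2%. Ebf3, an early B-cell factor, and Emx2, a homeobox factor of the dorsal telencephalon, were present in 8 each, or 61.5%. Trp73, the p73 member of the p53 family, was present in 4, or 30.8%. In the 13 members with Reln but no Ndnf, all 5 were at 0 of 13, which allows a share of cells with a UMI of up to 23.1%. In the 81 members without Reln, Nhlh2 was found in 1 and the other 4 in none, which allows up to 3.70%. At these low counts, neither limit bounds the share of cells that express the genes. Calb2 (calretinin, a calcium buffer) was present in 8 of 13 with Ndnf against 1 of 13 and 6 of 81, and Cacna2d2 in 12 of 13 against 3 of 13 and 12 of 81. Reln, Lhx1, Ebf3, Nhlh2, Trp73, Calb2 and Ndnf are known together from Cajal-Retzius cells of the cortical and hippocampal marginal zone; the 13 cells are given no name here.

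Mef2c, Lypd1, Rbfox3 and Nefl had no UMI among the 35370 of the members with Ndnf, while the remaining members reached 1077 CPM for Mef2c and 582 CPM for Lypd1. Members without Slc17a7 were low in Mef2c and Lypd1 as well, and 11 of the 13 were among them. Snap25 was at 424 CPM (237 to 699) against 2066 (1928 to 2212), present in 8 of 13, and Syt1 was present in 10 of 13. Median depth was 2424 UMIs against 3066, and the median mitochondrial share was 4.17% against 8.40%. Cdkn1c, an inhibitor of cyclin-dependent kinases, was at 452 CPM against 5.0.

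**Figure D3:**
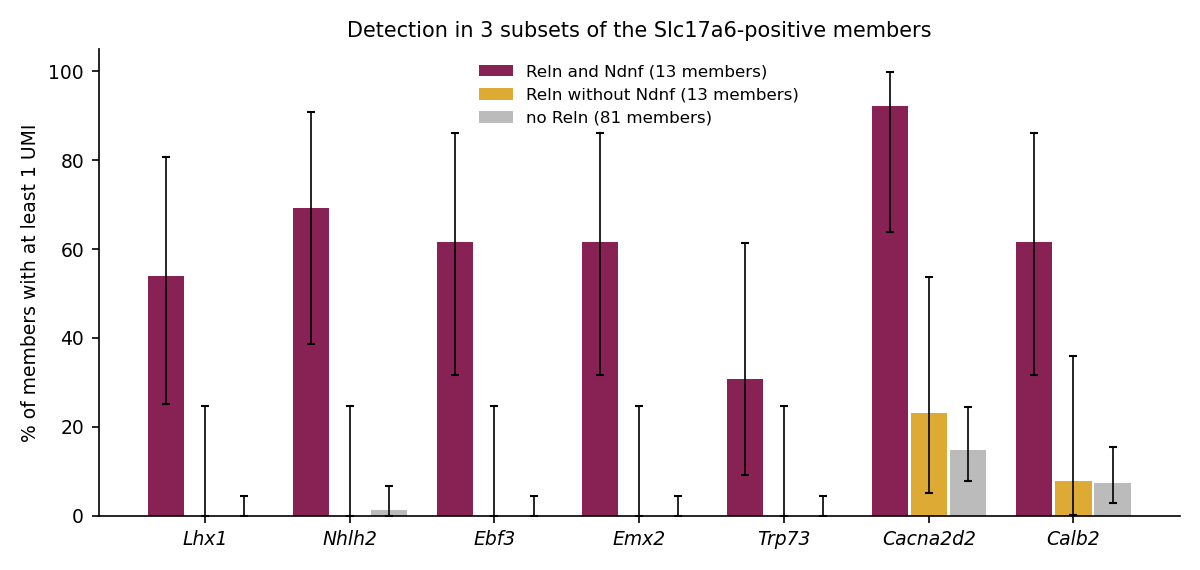
Bars give the percentage of members with at least 1 UMI of each gene in the 13 members with Reln and Ndnf, the 13 with Reln but no Ndnf and the 81 without Reln; lines are exact binomial 95% intervals. Lhx1, Nhlh2, Ebf3, Emx2 and Trp73 appear in the first set at 30.8 to 69.2% and in the other 94 members once.

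In the sums of Reln-positive and Reln-negative members over the 5 libraries with at least 3 of each, only 110 genes could be tested and 0% of the genes tested were called (edgeR with library block). DESeq2 also called 0; 4 genes (3.64%) had an unadjusted p under 0.05, and 7 (6.36%) had the same sign in every library. The smallest p belonged to Eef1a1, a translation elongation factor (1.72, SE 0.61, adjusted p = 0.683, edgeR). Mef2c, at -2.10 (SE 0.81, adjusted p = 0.683, edgeR), was next. With no filter on low counts, Ndnf (8.33, SE 1.21) and Nhlh2 (5.61, SE 1.23) were called higher with Reln at adjusted p by edgeR of 8.6e-08 and 0.0214. The fitted folds of these 2 genes depend on the prior count, since Ndnf had no UMI in members without Reln.

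The members were then set against the Slc17a7 neurons without Slc17a6 of the same libraries, 653 barcodes that met the same rule on all other genes. Their median depth was 1761 UMIs against 2995 for members, and their median mitochondrial share 6.47% against 8.02%. Sums of at least 10 barcodes of both kinds were available in BCD/Sal 1 and 2, BCD/Ket 3 and CORT/Ket 3, with 39918 to 571450 UMIs each. Of 3374 genes tested, 0.267% were called by edgeR's quasi-likelihood test with the library as a block. These 9 genes were all higher in members, and each was higher in all 4 libraries, a pattern that 19.8% of the tested genes showed in 1 direction or the other. The rule genes were not counted.

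Sema5a, an axon guidance molecule of the semaphorin family, changed most. Members of the 4 libraries, in the order above, had 101, 146, 253 and 426 CPM, and the Slc17a7 neurons had 14.0, 22.2, 25.3 and 14.6. The groups do not overlap, and the fitted difference was 3.50 on the log2 scale (SE 0.40, adjusted p = 3.1e-06, edgeR). The member levels of Sema5a rested on few UMIs, with 7, 16 and 13 in BCD/Sal 1, BCD/Sal 2 and BCD/Ket 3. In CORT/Ket 3 the 3 members with Reln held 11, of which 1 lay in the 2 with Ndnf and the rest in 1 cell. The 10 members without Reln there held 6. Nova1, a neuronal splicing factor, was at 86.8, 109.5, 97.4 and 100.2 CPM against 14.0, 16.7, 12.7 and 17.5 (2.64, SE 0.51, adjusted p = 0.00786, edgeR). Tshz2, a teashirt zinc finger factor, was at 188, 128, 195 and 326 CPM against 68.2, 44.4, 59.1 and 26.2 (2.00, SE 0.37, adjusted p = 0.00406, edgeR). Neither overlapped between the kinds. With no filter on low counts, Ndnf (7.19), Lhx1 (5.93), Prkcd (5.53) and Ebf3 (5.18), among others, were called with larger differences than Sema5a (3.29).

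The neuropeptide and secretory genes among the 9 were Cck and Scg5. Cck, the gene of cholecystokinin, was at 752, 1223, 1460.4 and 1403 CPM in members against 499, 306, 764 and 291 (1.42, SE 0.24, adjusted p = 0.00256, edgeR), higher in every library, although the ranges of the kinds overlap. It was the only called gene of 18 neuropeptides, of which 2 had enough counts. Scg5, the chaperone 7B2 of a prohormone convertase, was at 275, 383, 682 and 551 CPM against 171, 211, 211 and 186 (1.20, SE 0.24, adjusted p = 0.0132, edgeR). It was 1 of 12 tested granin and peptide-processing genes, 8 of which had a positive difference and whose median was 0.19, beside -0.01 over all genes. Nap1l5 and Usp29 are imprinted genes, the former a nucleosome assembly protein and the latter a ubiquitin protease. Nap1l5 was at 202, 803, 331 and 426 CPM against 112, 233, 131 and 90.3 (1.56, SE 0.26, adjusted p = 0.00228, edgeR) and Usp29 rose by 1.48 (SE 0.33, adjusted p = 0.0365, edgeR). Pcp4, a regulator of calmodulin, was at 289, 1569.8, 682 and 576 CPM against 196, 683, 80.2 and 125 (1.63, SE 0.28, adjusted p = 0.00256, edgeR), BCD/Sal 2 being high in both kinds. Nrsn2, a vesicle membrane protein of neurons, rose by 1.87 (SE 0.33, adjusted p = 0.00256, edgeR).

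**Figure D4:**
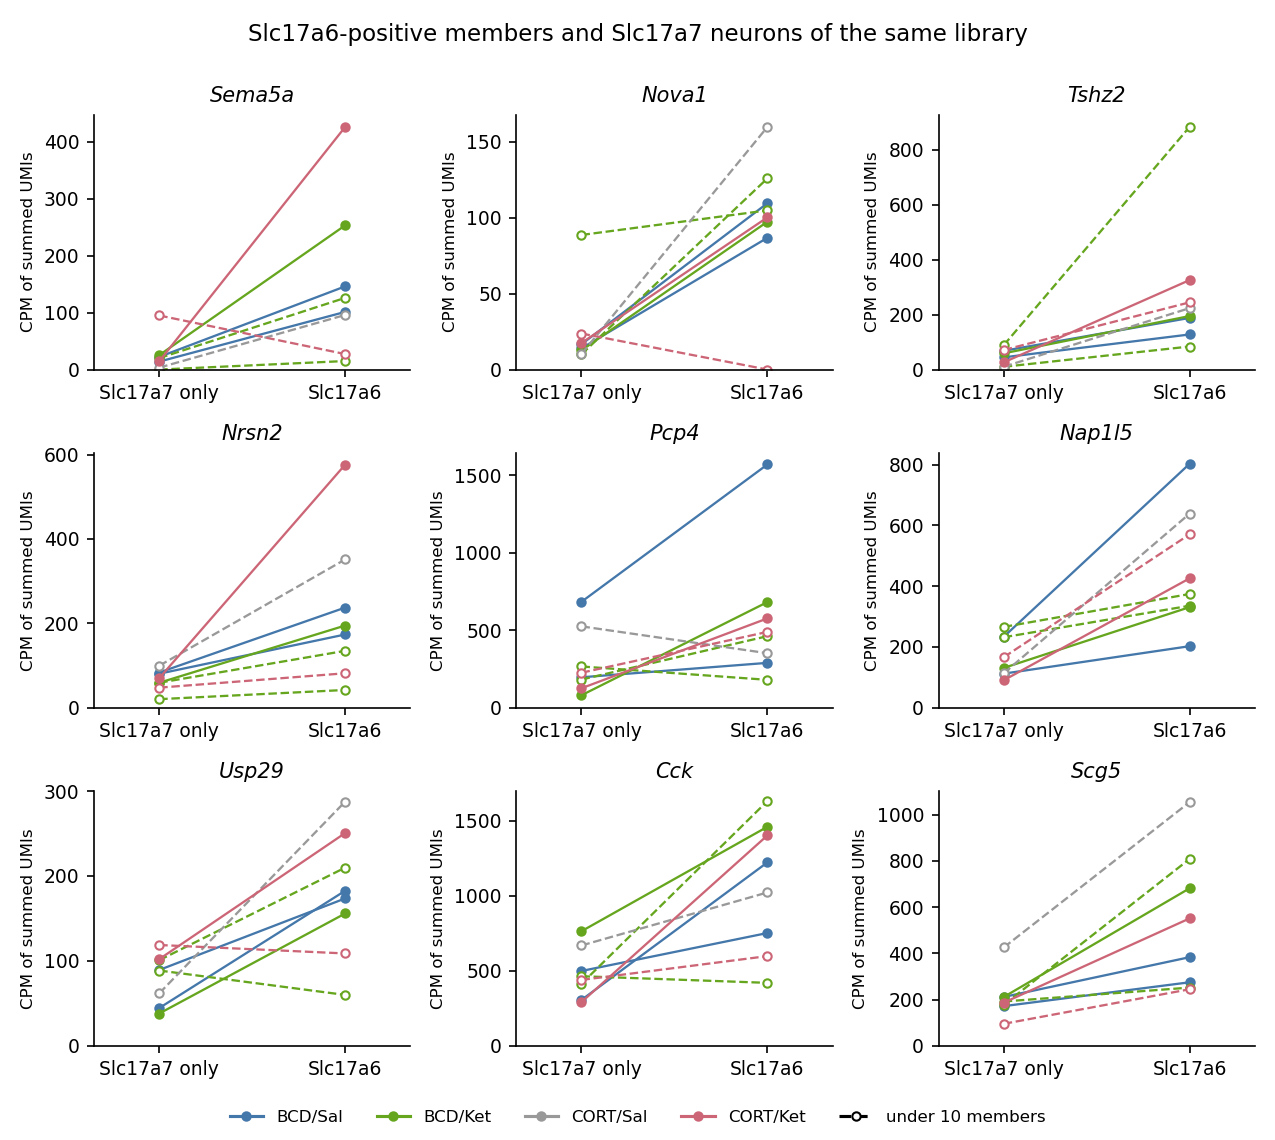
Each line joins Slc17a7 neurons without Slc17a6 (left) to the Slc17a6 members (right) of 1 library, in CPM of summed UMIs on axes from 0; filled points are the 4 libraries with at least 10 members and open points with dashed lines the 4 with 7 or 8. All 9 genes rise in the 4 filled libraries, and Sema5a, Nova1, Pcp4, Usp29 and Cck fall in 1 or 2 of the dashed ones.

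Over the 8 libraries with at least 5 members, Tshz2, Nrsn2, Nap1l5 and Scg5 were higher in members in all 8, Sema5a, Nova1 and Cck in 7, and Pcp4 and Usp29 in 6. In BCD/Ket 2 the deepest barcode weighed on these sums. The calls rested on CORT/Ket 3 more than on any other library: without it 1 gene, Sema5a, was called, and without the library block again only Sema5a. Without BCD/Ket 3 there were 24 calls and without BCD/Sal 2 there were 14. Over all the alternatives that tested them, Usp29 lost its call in 11, Tshz2 in 8, Scg5 in 7, Nrsn2 and Pcp4 in 5 each, Nap1l5 and Nova1 in 3 each, Cck in 2 and Sema5a in 0. DESeq2 called neither Usp29 nor Scg5. The fit on 8 libraries, chosen after seeing the data, tested 1489 genes and called 16 higher and 19 lower, Cck, Nap1l5, Pcp4 and Scg5 among the former; the other 5 genes had too few counts to be tested there.

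No gene passed as lower in members in the 4 libraries. Nptxr was at 969, 885, 779 and 501 CPM in members against 1181, 1883, 777 and 1597 (-0.73, SE 0.24, adjusted p = 0.199, edgeR), lower in 3 of these 4 libraries and in 7 of 8. Its partner Nptx1 (neuronal pentraxin 1) was lower in all 8 libraries, with pooled levels of 168 against 410.1 CPM (-0.94, SE 0.28, adjusted p = 0.143, edgeR). Both were called lower in the fit on 8 libraries, and both and Chgb were called lower with no filter on low counts. Chgb stood at 304, 767, 545 and 426 CPM against 485, 1344, 489.6 and 1125 (-0.68, SE 0.24, adjusted p = 0.229, edgeR), and its high pooled count came in part from BCD/Ket 2, at 2006 CPM. In the Slc17a7 neurons, hemoglobin genes summed to 69696 CPM in CORT/Ket 2 and to at most 177 elsewhere; that library entered none of the tests across genes.

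The remaining gene lists gave no call in this comparison. Of 10 pan-neuronal genes all were tested, with 4 positive and 6 negative differences and a median of -0.05. Of 12 pallial transcription factors 5 were tested, 4 of them negative, with a median of -0.60, and 8 of 10 tested ionotropic glutamate receptor genes were negative, with a median of -0.18. Of 13 voltage-gated potassium channels 11 were tested, 6 positive and 5 negative (median 0.31). Reelin signalling had 9 of 11 genes tested, 6 negative (median -0.12), and 3 of 19 immediate early genes were tested (median 0.24). Of 10 factors of hypothalamic and medial amygdala glutamate neurons 6 were detected, summing to 154 CPM in members and 99.1 in the Slc17a7 neurons, with Lhx2 the most abundant at 34 UMIs. Sim1, Nr5a1, Fezf1 and Nkx2-1 had no UMI in any member, and 1 of the 10 could be tested. The 7 thalamic genes beside Slc17a6 summed to 698 CPM in members and 287 in the Slc17a7 neurons, led by Ntng1 (netrin G1) with 142 UMIs. By library, this sum was not higher in members in BCD/Ket 2, BCD/Ket 3 and CORT/Ket 2, and its highest member level was in BCD/Sal 2. Lef1 was at 0, and Tnnt1 and Prkcd were found in 2 and 3 members with 12 and 25 UMIs. Prkcd was called higher with no filter on low counts (5.53, SE 1.18, adjusted p = 0.00238, edgeR). This call rested on 2 cells of BCD/Sal 2, which held 12 Prkcd UMIs each and all the Tnnt1 UMIs. The 2 tested thalamic genes, both positive, had a median of 0.68.

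Celsr2, Celsr3 and Prickle2 are among the planar cell polarity genes that the study examined. Celsr1 had no UMI in members, which allows up to 6.89 CPM. Celsr2 (chr3:108193769-108218470, minus strand) had 118 UMIs in 57 members, or 53.3%, and Celsr3 (chr9:108728651-108755294, plus strand) had 34 UMIs in 29 members, or 27.1%. In microglia the shares were 1.65 and 0.472%, in astrocytes 20.8 and 0.109%, and in the Slc17a7 neurons 39.1 and 26.95%. These shares were not adjusted for depth. Its median was 2995 UMIs in members, 1613.5 in microglia, 2105.5 in astrocytes and 1761 in the Slc17a7 neurons. Celsr2 levels were 188 and 301 CPM for BCD/Sal, 378, 239.5 and 409 for BCD/Ket, 128 for the CORT/Sal library, and 353, 293 and 175 for CORT/Ket. CORT/Sal 1 was the lowest library, on 4 UMIs and with an exact Poisson interval of 34.8 to 327 CPM that holds the values of 5 of the other 8. Group means were 245 ± 80.1 (SD, n = 2) for BCD/Sal, 342 ± 90.1 (SD, n = 3) for BCD/Ket and 264 ± 126 (SD, n = 2) for CORT/Ket over libraries with at least 5 members. The log2 difference was 0.42 (SE 0.56) for BCD/Ket against BCD/Sal and -0.36 (SE 0.60) for CORT/Ket against BCD/Ket, each with adjusted p = 0.999 in edgeR, and groups overlapped in both. Leaving out 1 library moved the first from 0.09 (without BCD/Sal 1) to 0.75 (without BCD/Sal 2) and the second from -0.92 (without CORT/Ket 1) to 0.09 (without CORT/Ket 3), so neither size nor, for the second, sign was stable. Against the Slc17a7 neurons Celsr2 differed by 0.11 (SE 0.26, adjusted p = 0.936, edgeR), higher in members in 4 libraries of 8 and lower in 4. Without 1 library at a time, this difference ran from -0.05 to 0.27.

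Celsr3 levels were 130.1 and 36.5 CPM for BCD/Sal, 42.0, 89.8 and 38.9 for BCD/Ket, 95.8 for the CORT/Sal library (3 UMIs, interval 19.8 to 280.1), and 27.2, 439 and 125 for CORT/Ket, the value of 439 resting on 3 UMIs in 2 cells. It had too few counts for the tests between treatments. Against the Slc17a7 neurons it differed by -0.52 (SE 0.38, adjusted p = 0.698, edgeR), lower in members in 7 of 8 libraries, with pooled levels of 78.1 CPM (54.1 to 109) and 115 CPM (101 to 132). Leaving out 1 library moved this difference from -0.76 to -0.23. Members with and without Slc17a7 had 294 (236 to 362) and 220.1 (148 to 314) CPM of Celsr2, and 73.5 (46.1 to 111) and 88.0 (45.5 to 154) CPM of Celsr3, intervals that overlap. Of the 19 planar cell polarity genes, 5 were tested against the Slc17a7 neurons and none was called, with 3 positive, 2 negative and a median of 0.11. Fzd3, a frizzled receptor of the pathway, was at 264 CPM against 185 (0.64, SE 0.24, adjusted p = 0.310, edgeR), and Prickle2, a cytoplasmic partner, at 110.2 against 122 (-0.08, SE 0.33, adjusted p = 0.959, edgeR).

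**Figure D5:**
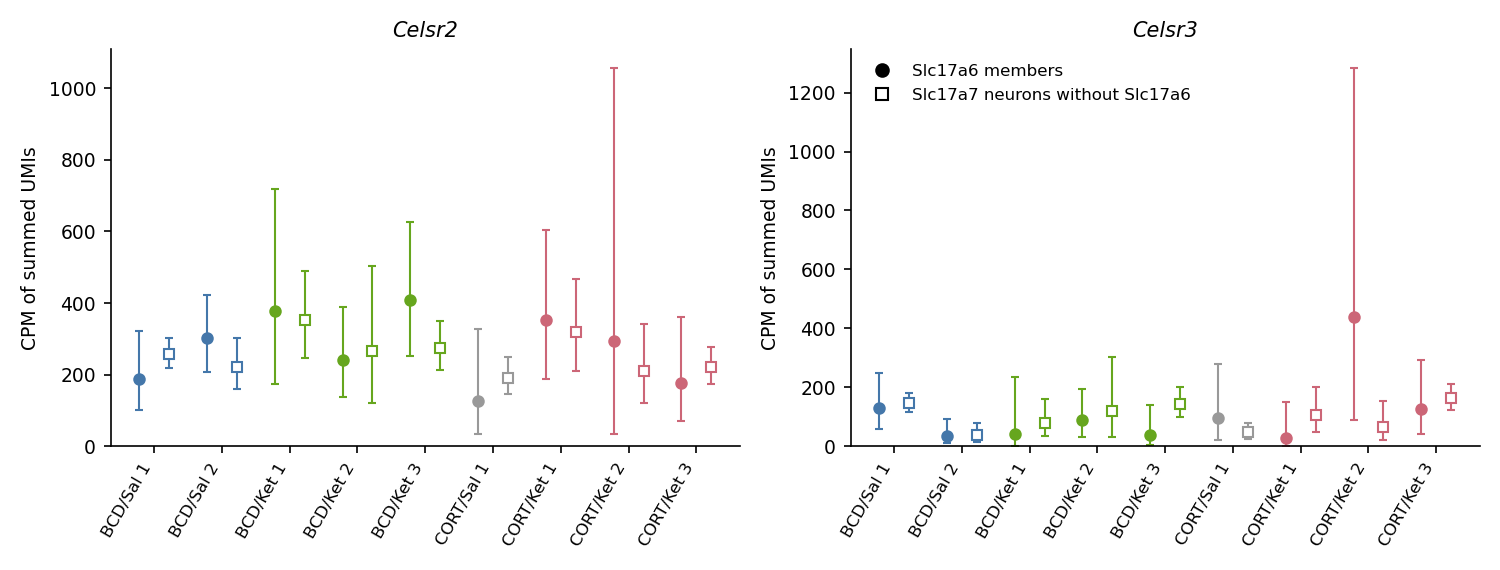
Points give Celsr2 (left) and Celsr3 (right) in CPM of summed UMIs for each library, filled for Slc17a6 members and open for Slc17a7 neurons without Slc17a6; lines are exact Poisson 95% intervals for counting error and colours mark groups. The intervals of the 2 kinds overlap in every library for Celsr2, and the 439 CPM of Celsr3 in CORT/Ket 2 rests on 3 UMIs.

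Comparisons between treatments asked whether ketamine altered the members under vehicle, and whether CORT altered them under ketamine. They used the 8 libraries with at least 5 members, since BCD/Ket and CORT/Ket had only 1 library each with 10. The comparisons share the BCD/Ket libraries. Of 1834 genes tested, 0% were called for BCD/Ket against BCD/Sal and 0% for CORT/Ket against BCD/Ket by edgeR, and DESeq2 also called 0 in each. At an unadjusted p under 0.05 there were 24 genes (1.31%) and 66 genes (3.6%).

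The genes with the smallest p, none of which passed, show the size of the spread. Rgs4, a regulator of G protein signalling, had 159 and 529 CPM in BCD/Sal and 126, 74.9 and 58.4 in BCD/Ket (-2.12, SE 0.65, adjusted p = 0.999, edgeR). Nrgn, the calmodulin-binding postsynaptic protein neurogranin, had 1692 and 3359 CPM under BCD/Sal, 1846, 494 and 467 under BCD/Ket, 1150.2 for the CORT/Sal library, and 2745 and 3232 for CORT/Ket 1 and 3. It was among the 10 smallest p in both comparisons, at -1.55 (SE 0.56) and 1.76 (SE 0.56). The CORT/Ket libraries lay above all BCD/Ket libraries, while BCD/Sal and BCD/Ket overlapped. Between CORT/Ket and BCD/Ket, 14.5% of the genes tested had no overlap, in 1 direction or the other. Arhgap5, a regulator of small GTPases, had 294, 299 and 584 CPM in BCD/Ket and 54.4 and 75.2 in CORT/Ket (-2.59, SE 0.76, adjusted p = 0.999, edgeR). Of the listed groups, 9 of 11 tested ionotropic glutamate receptor genes were negative for BCD/Ket against BCD/Sal, with a median of -0.57 beside 0.07 over all genes, and 4 of 11 were negative for CORT/Ket against BCD/Ket, with a median of 0.17 beside -0.07. Immediate early genes had medians of 0.37 and -0.12 over the 6 tested. CORT/Sal 1, with 1 library, has no test: beside Reln and Celsr2 above, its members had 511 CPM of Slc17a6, 256 of Slc17a7, 351 of Nptxr and 671 of Chgb, and all but Slc17a7 lay within the range of the other libraries with at least 5 members.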

How the data were processed

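The deposited matrices hold counts, one UMI total for each gene in each barcode, which the authors produced with Cell Ranger (version 3.0.2 in the file headers, mm9 in the methods and the submitters' processing notes); 31053 features, in matrices already reduced to called cells, 1 library each and not normalized. In CORT/Sal 2, 2397 of 2469 barcodes passed the limits on mitochondrial share and genes, a larger part than in any other library. The gene annotation is not given in the sources used here. Prefrontal libraries were not analysed here, and doublets were not called. Members and gene lists were chosen with earlier results of these data known.

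Counts of members were summed per library, with CPM over all UMIs of a sum. Sums were tested with edgeR 4.0.16 (TMM, filterByExpr, robust quasi-likelihood, Benjamini-Hochberg adjusted p under 0.05), with the library as a block between kinds of cell and one coefficient per group between treatments. The planned minimum of 10 cells per sum left too few libraries, so 5 members (treatments and shares) and 3 (subsets) were used, chosen after seeing the data. Shares were compared by two-sided exact permutation over libraries; intervals are exact binomial or Poisson at 95% and cover counting error only. One mouse gave 1 library. Named genes were the listed genes, the 10 largest called changes in each direction with the same sign in every library, and the 10 smallest p where under 10 genes were called. Alternatives included DESeq2 1.42.0, other filters and leaving out each library. The procedures were tested on simulated data. Gene positions are from GENCODE M1, matched by Ensembl identifier for 316 of 317 listed or named genes. Some genes are not reported here.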

Additional observations from a re-analysis of the deposited data

How the results depend on the processing

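Differences in shares are given in percentage points. Under 2 settings, a mitochondrial limit of 5% and at least 2 UMIs of Slc17a6, so few libraries kept 5 members that the Slc17a7 and Reln differences have 1 library on at least 1 side and are values without weight. With a mitochondrial limit of 5%, CORT/Ket minus BCD/Ket was -1.06 for the share of members, -30 for Slc17a7 and -35 for Reln, and BCD/Ket minus BCD/Sal was 9.17 for Slc17a7. With a limit of 25%, Slc17a7 in CORT/Ket minus BCD/Ket was -4.29, and the Cartpt differences were 2.40 (BCD/Ket minus BCD/Sal) and 1.94 (CORT/Ket minus BCD/Ket). With at least 2 UMIs of Slc17a6, the Slc17a7 differences were 0 and -6.67 in that order, and Reln in CORT/Ket minus BCD/Ket was 23.3, which is 1 library against 1. Slc17a7 in CORT/Ket minus BCD/Ket was -3.41 with at least 1000 genes, and the share of members was -0.250 after thinning to 1000 UMIs. Leaving out 1 library at a time, the CORT/Ket minus BCD/Ket difference ran from -0.751 (without CORT/Ket 1) to 1.68 for the share of members. For Slc17a7 it ran from -23.4 (without CORT/Ket 1) to 31.5 and was -1.58 without BCD/Ket 3. The BCD/Ket minus BCD/Sal difference for Slc17a7 ran from -15.3 to -5.51.

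Between members and Slc17a7 neurons, 9 genes were called, against 74 with no filter on low counts, 43 with a mitochondrial limit of 25%, 22 with at least 20 cells per sum, 35 with at least 5 (chosen after seeing the data), 14 with at least 2000 UMIs per barcode and 1 without the library block. Of the 9, 5 kept their call with at least 20 cells, 3 of the 8 tested with at least 2000 UMIs, and 3 of the 8 tested in barcodes with Snap25, where 6 genes were called. Leaving out 1 library gave 1 to 24. DESeq2 called 7. BCD/Ket against BCD/Sal gave 1 gene in place of 0 with a mitochondrial limit of 5% (Nrgn), with at least 2 UMIs of Slc17a6 (Lars2) and with at least 10 cells per sum (Lars2). Each of these 3 fits had 1 library in an arm, which is assumed to vary like the other groups. CORT/Ket against BCD/Ket gave 0 to 1 when 1 library was left out (Pde1a without BCD/Ket 2). The Reln comparison gave 2 genes with no filter and 2 in barcodes with Snap25, and 0 to 1 when 1 library was left out (Ndnf without BCD/Ket 1). The Slc17a7 comparison gave 2 genes, against 4 with no filter, 28 with a mitochondrial limit of 25%, 0 with at least 1000 genes, 4 with a marker sum of 0, 1 with at least 2 cells per sum, 0 without the library block and 1 to 4 when 1 library was left out. The cause of these changes was not tested. No paired analysis was possible because replicate numbers of the treatment groups only follow accession order. The Reln and Slc17a7 comparisons within members and the comparison with Slc17a7 neurons had no fit with a mitochondrial limit of 5% or at least 2 UMIs of Slc17a6, since too few cells were left. In simulated sums, 4-fold changes were recovered for 49.5% of changed genes in BCD/Ket against BCD/Sal and 32% in CORT/Ket against BCD/Ket, so many changes of that size would be missed between treatments.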
